A study of Mus musculus with 24 samples.

Results

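A set of 10 genes of the choroid plexus epithelium, out of 46983 genes in the deposited count table, was followed through the hippocampus of 24 female mice. They were chosen by name, as *Ttr*, *Enpp2*, *Kl*, *Folr1*, *Kcne2*, *Clic6*, *Otx2*, *Slc4a5*, *Sostdc1* and *F5*, after *Ttr* had been seen to be lower in one genotype, so that every difference between genotypes in them is given here as a description. All 10 were found in the table, 6 of them (*Ttr*, *Enpp2*, *Kl*, *Clic6*, *Sostdc1* and *F5*) had 10 or more reads in all 6 mice of some group and entered the tests among 16209 genes, and the other 4 (*Folr1*, *Kcne2*, *Otx2* and *Slc4a5*) were too low for that filter.

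Bulk mRNA came from punches of dorsal and ventral hippocampus, 1 mm wide, from mice labelled C57BL/6 that had been behaviourally tested at 6 months of age. All carried loxP-flanked *Fkbp5* alleles. Those labelled *Fkbp5 lox/lox* (lox/lox mice) had no Cre recombinase and served as wild types, while in their *Fkbp5 Nex* littermates (Nex mice) Cre from the Nex locus removes the gene from glutamatergic forebrain neurons before birth, but not from the dentate gyrus, and no epithelium is named among the cells that lose it. Litters had either limited bedding and nesting material from postnatal day 2 to 9 (early life stress, ELS) or standard housing (control), which gave 4 groups of 6 mice, control and ELS in each genotype. Each library held 18347283 to 26555623 reads counted to genes. *Fkbp5* itself, the targeted gene, had 1078 to 1602 reads in the 12 lox/lox mice and 169 to 582 in the 12 Nex mice, with no overlap. The 10 genes of a hippocampal neuron list, led by *Neurod6*, *Fibcd1* and *Prox1*, summed to between 351 and 953 CPM (read counts scaled to 1000000 per library) in each mouse. Nex control mouse 42 lay far above the other mice of its group in CPM for 9 of the 10 choroid plexus genes, all but *Kl*, though not on the log2 scale.

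The choroid plexus is a folded sheet of epithelium on a core of vessels that hangs in the brain ventricles and makes most of the cerebrospinal fluid. It is not part of the hippocampus, but in the lateral ventricle it lies along the hippocampal fimbria, and its epithelium continues into the ependyma that lines the ventricle. Its cells devote much of their mRNA to secreted carriers and to the ion transport that drives fluid across the epithelium. In bulk tissue, fewer choroid plexus cells and less RNA per cell cannot be told apart.

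The promoters of 5 of the 10 genes (*F5*, *Kl*, *Slc4a5*, *Otx2* and *Kcne2*) were in the RefSeq promoter table for GRCm38.p6, with 9 entries among them, each running from 250 bases before to 50 bases after a transcription start. The 3 shown belong to genes that varied together across the mice and that failed the read filter, so that they can be read beside each other. *Otx2* and *Kcne2* have further entries, and the *Otx2* entry printed is the one with the OTX core. The *Otx2* and *Slc4a5* stretches lie before internal starts, within the spans of these genes in GENCODE vM21. Only the 250 bases before the start are printed, 5′ to 3′ on the strand of the gene. Capitals mark a match to one of 3 motifs searched on both strands: the core bound by OTX factors (GGATTA, or TAATCC), a forkhead core (TGTTTAC, or GTAAACA) and a TATA box (TATAAA, or TTTATA).
*Otx2*, chr14:48665110-48665359, minus strand: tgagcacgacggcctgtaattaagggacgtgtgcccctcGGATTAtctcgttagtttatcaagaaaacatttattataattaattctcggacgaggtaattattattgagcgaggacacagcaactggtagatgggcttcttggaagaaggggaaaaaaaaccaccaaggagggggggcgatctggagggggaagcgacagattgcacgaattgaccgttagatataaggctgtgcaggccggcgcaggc
*Slc4a5*, chr6:83237125-83237374, plus strand: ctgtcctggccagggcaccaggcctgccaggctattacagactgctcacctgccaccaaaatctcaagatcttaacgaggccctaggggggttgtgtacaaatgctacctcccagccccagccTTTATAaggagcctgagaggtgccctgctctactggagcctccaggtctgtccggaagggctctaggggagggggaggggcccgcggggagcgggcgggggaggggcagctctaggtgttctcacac
*Kcne2*, chr16:92292139-92292388, plus strand: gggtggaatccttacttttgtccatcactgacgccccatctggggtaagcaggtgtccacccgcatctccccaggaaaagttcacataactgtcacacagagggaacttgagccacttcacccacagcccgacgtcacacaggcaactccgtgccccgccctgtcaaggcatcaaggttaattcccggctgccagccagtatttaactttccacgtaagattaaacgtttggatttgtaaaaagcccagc
The OTX core stood in 1 of the 9 promoters, that of *Otx2*, and in 7.06% of the 32851 promoters in the table. A TATA box stood in 2 of the 9, one of *Slc4a5* and another start of *Otx2*, against 13.6% of all promoters, and the forkhead core in 0 of 9, against 3.65%. The *Kcne2* stretch holds none of the 3. These are matches of letters and say nothing about which factors bind there.

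*Ttr* encodes transthyretin, the carrier of thyroxine and of retinol-binding protein in the cerebrospinal fluid, and it was the most variable of all 16209 tested genes. In lox/lox control mice its lowest, median and highest levels were 4.93, 804 and 4235 CPM. In lox/lox ELS mice they were 0.592, 469 and 1375 CPM. In Nex control mice they were 0.227, 31.4 and 3132 CPM, and in Nex ELS mice 3.42, 115 and 1355 CPM. Every group held mice with almost no *Ttr* and mice in which it was among the abundant transcripts, so the 4 groups overlapped over most of their range. The lowest value came from 5 reads (Nex control mouse 12) and the highest from 95942 reads (lox/lox control mouse 74). The latter were 0.43% of all reads counted to genes in that mouse. Of the 6 Nex control mice, 2 lay above the median of the lox/lox control mice.

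*Enpp2*, *Sostdc1* and *F5* encode the other secreted proteins. *Enpp2* (autotaxin), which makes lysophosphatidic acid from lysophosphatidylcholine and is also made by oligodendrocytes, had a lowest, median and highest level of 63.7, 454 and 1987 CPM in lox/lox control mice and of 70.4, 349 and 648 CPM in lox/lox ELS mice. In Nex control mice the 3 values were 73.5, 150.3 and 1412 CPM, and in Nex ELS mice 83.4, 167 and 739.6 CPM. Unlike *Ttr*, *Enpp2* kept a floor, with at least 1302 reads in every mouse. *Sostdc1*, a secreted antagonist of BMP and Wnt signalling, spanned 1.18 to 27.7 CPM over all mice, with group medians of 8.31 (lox/lox control), 5.84 (lox/lox ELS), 4.14 (Nex control) and 3.89 CPM (Nex ELS). *F5*, coagulation factor V, spanned 0.50 to 63.1 CPM, with group medians of 13.5, 9.07, 1.1 and 1.83 CPM in the same order. The ranges of the 4 groups overlapped for each of these genes.

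The membrane proteins of the list had the same shape. *Kl* (α-Klotho), the co-receptor through which FGF23 acts and a gene that neurons also express, never fell under 238 reads and spanned 10.9 to 179 CPM, with group medians of 55.2 (lox/lox control), 43.8 (lox/lox ELS), 20.7 (Nex control) and 23.1 CPM (Nex ELS). *Clic6*, an intracellular chloride channel protein, had a lowest, median and highest level of 0.503, 15.3 and 80.7 CPM in lox/lox control mice and of 0.378, 10.9 and 26.3 CPM in lox/lox ELS mice. In Nex control mice *Clic6* ran from 0.0455, a single read, through a median of 1.13 to 62.4 CPM, and in Nex ELS mice from 0.357 through 2.98 to 34.3 CPM. *Clic6* and *Kcne2* are neighbours on chromosome 16, 187606 bases apart in GENCODE vM21 (GRCm38).

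The 4 genes under the filter were not silent. Each had fewer than 10 reads in at least one mouse of every group and at least 189 reads in another. *Folr1*, the folate receptor that loads folate into the cerebrospinal fluid, had a lowest, median and highest count of 3, 145 and 776 reads in lox/lox control mice, 0, 78 and 240 in lox/lox ELS mice, 3, 15 and 412 in Nex control mice and 0, 22 and 259 in Nex ELS mice. The counts of *Kcne2*, a β-subunit of potassium channels such as *Kcnq1*, were 4, 127.5 and 731 reads in lox/lox control mice and 4, 94 and 214 after ELS, and 6, 14.5 and 451 in Nex control mice and 3, 26 and 206 after ELS. *Slc4a5*, a sodium bicarbonate cotransporter, had 1, 137 and 728 reads in lox/lox control mice, 5, 91.5 and 208 in those with ELS, 0, 4 and 450 in Nex control mice and 2, 25 and 252 in those with ELS. Mice with almost no reads and mice with many thus occurred side by side in every group. *Folr1* was at 0 reads in Nex ELS mouse 60 and lox/lox ELS mouse 68, which allows up to 0.153 and 0.162 CPM, and *Slc4a5* in Nex control mouse 12, which allows up to 0.136 CPM by 3 counts. All 10 genes passed edgeR's own filter, filterByExpr.

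*Otx2*, a homeobox transcription factor that choroid plexus cells need, was the only transcription factor of the list. Its lowest, median and highest counts were 4, 98.5 and 589 reads in lox/lox control mice and 3, 111 and 189 in lox/lox ELS mice. They were 3, 19.5 and 425 in Nex control mice and 2, 28.5 and 220 in Nex ELS mice. *Otx2* is also expressed in parts of the thalamus and midbrain. lox/lox ELS mouse 8, with 53 *Otx2* reads, ranked 13 of 24 for *Otx2* and 23 for *Ttr*, but also 14 for *Kl* and *Slc4a5*. lox/lox ELS mouse 78, with 74, ranked 11 and 15. These 2 mice had the highest summed levels of 8 thalamic genes, 308 and 283 CPM against a median of 76.8 CPM over all mice. Other mice did not follow this: Nex ELS mouse 66, at 261 CPM, ranked 10 for both genes. Nex control mice 12 and 52 ranked 21 and 19 for *Otx2* against 24 and 22 for *Ttr*, with thalamic sums of 59.2 and 98.3 CPM. The part of these genes in the *Otx2* reads was not tested.

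**Figure D1:**
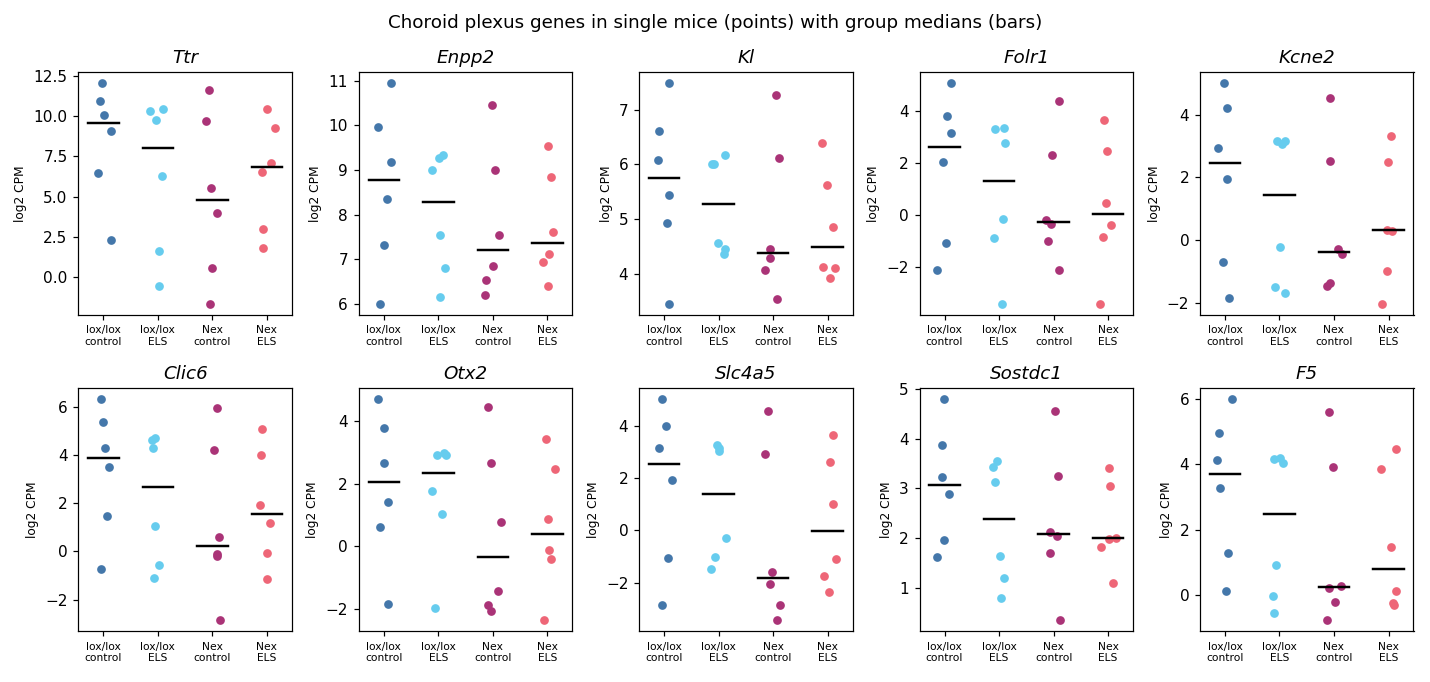
Level of each of the 10 genes in single mice, as log2 CPM (vertical axis, prior count of 2), in the 4 groups of 6 mice (horizontal axis), where points are mice and bars are group medians. Points of all 4 groups overlap in every panel, and *Ttr* spans from -1.64 to 12.05.

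Compared per length of transcript, *Ttr* stood highest. In the mouse where each was highest, *Ttr* reached 3571 CPM per kilobase of exon and *Enpp2* 344. The next genes were *Clic6* at 20.6, *Kl* at 19.2, *Kcne2* at 18.3, *Sostdc1* at 15.6 and *Folr1* at 14.9 CPM per kilobase. *F5* at 8.5, *Otx2* at 6.16 and *Slc4a5* at 5.54 CPM per kilobase were lowest, and single mice do not show whether neighbours in this order differ.

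The 10 genes varied together from mouse to mouse. lox/lox control mouse 74, Nex control mouse 42 and lox/lox control mouse 50 were the 3 highest mice for all 10 genes, in that order. When the 12 highest mice were listed for each gene, 11 mice stood on all 10 lists. Those mice came from every group. Over the 24 mice, Spearman's rho between 2 of the genes lay between 0.74 (*Kl* and *Sostdc1*) and 0.98, with a median of 0.93 over the 45 pairs. With *Ttr* it was 0.98 for *Clic6*, 0.96 for *Enpp2* and *F5*, 0.95 for *Folr1*, 0.94 for *Slc4a5*, 0.93 for *Kcne2*, 0.90 for *Otx2*, 0.89 for *Sostdc1* and 0.87 for *Kl*. These correlations describe 24 libraries in which all genes share one punch, one library and one scaling, and they carry no test.

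**Figure D2:**
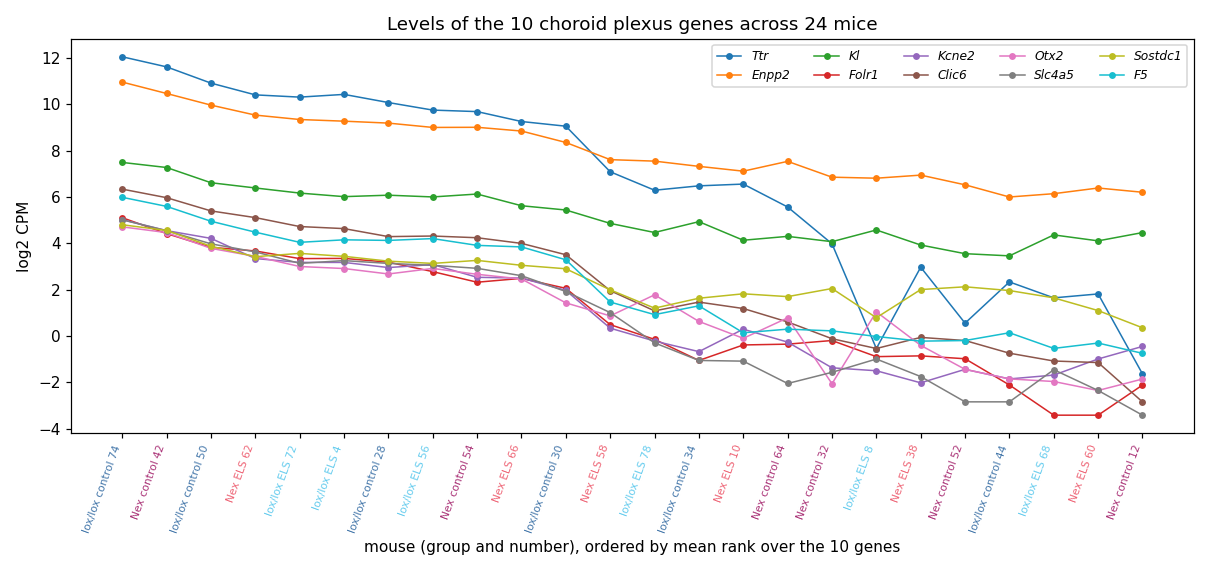
Log2 CPM (vertical axis) of the 10 genes (lines) in the 24 mice (horizontal axis), ordered by their mean rank over the 10 genes, with mouse labels coloured by group. The lines run in parallel through the highest mice, while *Ttr* falls away from *Enpp2*, *Kl* and *Sostdc1* in the lowest ones.

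In the mouse of each group with the most *Ttr*, its proportions to *Clic6*, *Enpp2* and *Folr1* were of similar size. The highest mouse of each group for *Ttr* had 52.5 (lox/lox control mouse 74), 55.7 (lox/lox ELS mouse 4), 50.2 (Nex control mouse 42) and 39.4 (Nex ELS mouse 62) times as much *Ttr* as *Clic6* on the CPM scale. *Ttr* stood at 2.13, 2.23, 2.22 and 1.83 times *Enpp2* in the same mice. The ratio to *Folr1* was 124, 137, 147 and 108. Other proportions ranged more widely among mice with much *Ttr*. The ratio to *Sostdc1* was 153 in lox/lox control mouse 74 and 72.1 in lox/lox control mouse 30, and that to *Kl* was 23.6 and 12.3. In Nex control mouse 12, the lowest for *Ttr*, the ratio of *Ttr* to *Enpp2* was 0.00309, because *Enpp2* kept 73.5 CPM there.

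The 8 genes outside the list whose level followed *Ttr* most closely among all tested genes were *Prlr* (rho 0.96), *Cldn2* (0.96), *Aqp1* (0.95), *Drc7* (0.94), *Col4a3* (0.94), *Mycbpap* (0.92), *1500015O10Rik* (0.92) and *Col8a2* (0.92), each over 24 mice. Of these, 5 (*Prlr*, *Cldn2*, *Aqp1*, *1500015O10Rik* and *Col8a2*) are on a separate list of 26 other choroid plexus genes, among them the prolactin receptor *Prlr*, the tight junction claudin *Cldn2* and the water channel *Aqp1*. *Cldn2* ran from 0.274 to 27.4 CPM and *Aqp1* from 0.162 to 24.5 CPM, again with mice near 0 and mice far above it. The summed level of the 26 genes ranged from 164 to 896 CPM and had a rho of 0.81 with *Ttr*. Its most abundant genes, *Car12*, *Cab39l*, *Igfbp2* and *Slc29a4*, have other sources in brain tissue. *Slc29a4* did not follow *Ttr* (rho 0.09, 17.2 to 56.4 CPM), and *Car12* did so weakly (rho 0.38, 49.3 to 126 CPM).

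Markers of other cell types that a punch near the ventricle could hold moved with *Ttr* to different degrees. The sum of 10 ependymal genes, led by *Foxj1* and *Rsph1* of motile cilia, went from 7.78 to 67.2 CPM with a rho of 0.85 with *Ttr*. Of these genes, *Mia* was near 0 throughout, with at most 0.154 CPM. The sum of 7 oligodendrocyte genes, led by the myelin genes *Mbp* and *Mobp*, went from 866 to 4112 CPM with a rho of 0.65. For 10 genes of meninges and stroma the rho of the sum was 0.08 (98.9 to 311 CPM), but its 2 most abundant genes went opposite ways, *Dcn* with a rho of -0.29 and *Igf2* with 0.69. The rho was -0.01 for 5 blood genes (38.8 to 96.8 CPM), 0.11 for 8 thalamic genes (47.3 to 308 CPM), -0.40 for 8 endothelial genes (116 to 218 CPM) and -0.37 for the 10 hippocampal neuron genes. Of every list, each gene had reads in at least one mouse. The choroid plexus genes thus shared their order of mice with ependymal and, less closely, with oligodendrocyte genes, and these correlations were not tested against each other. The part of ependymal or oligodendrocyte tissue in the levels of the 10 genes was not tested.

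**Figure D3:**
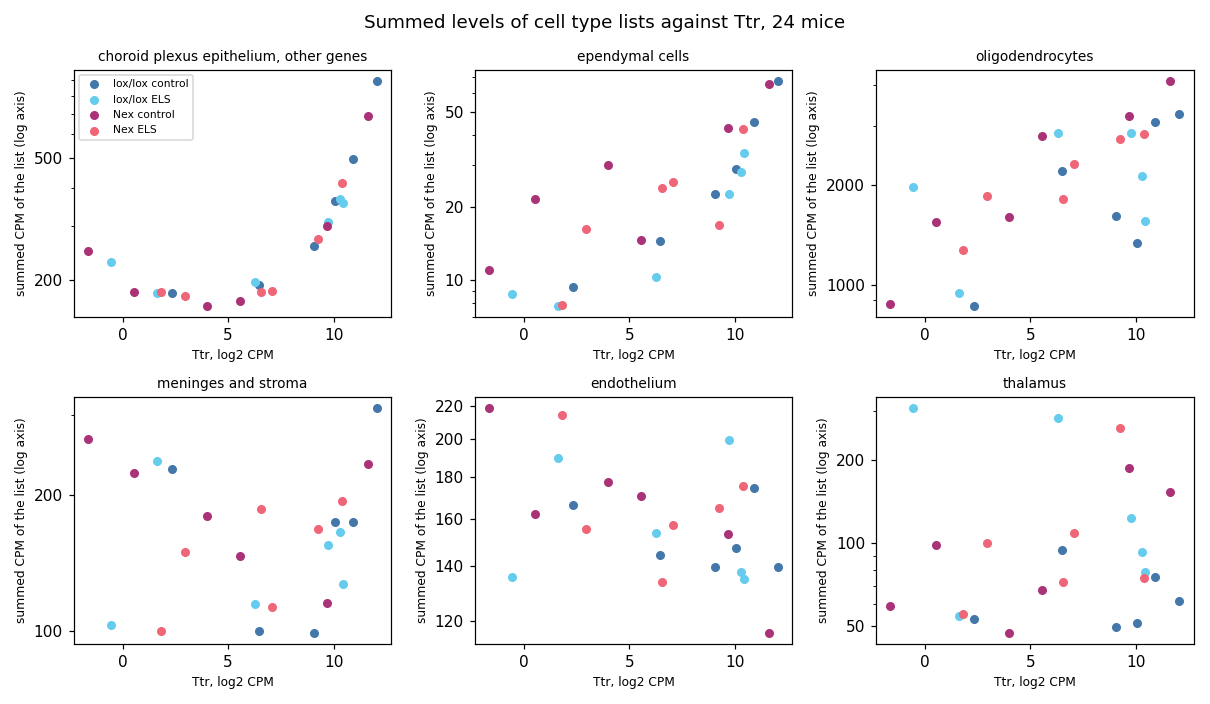
Summed CPM of 6 cell type lists (vertical axes, log scale) against log2 CPM of *Ttr* (horizontal axes) in 24 mice, coloured by group. The sums of other choroid plexus and ependymal genes rise with *Ttr*, while those of endothelium and thalamus do not.

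The spread between mice of one group was large for all 10 genes. The standard deviation (SD) of log2 CPM around the group means had a median of 0.18 over all 16209 tested genes, and 78 of those genes exceeded 1. *Ttr* had an SD of 4.27, which was the highest, *Clic6* of 2.75 (rank 2) and *F5* of 2.30 (rank 4). *Enpp2* followed at 1.53 (rank 14), *Kl* at 1.20 (rank 42) and *Sostdc1* at 1.19 (rank 43). The 4 genes under the filter had SDs of 2.80 (*Slc4a5*), 2.64 (*Folr1*), 2.40 (*Kcne2*) and 2.29 (*Otx2*), part of which is counting error at low reads. A comparison of 6 against 6 mice therefore sets a group difference in *Ttr* against an SD of 4.27 on the log2 scale.

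**Figure D4:**
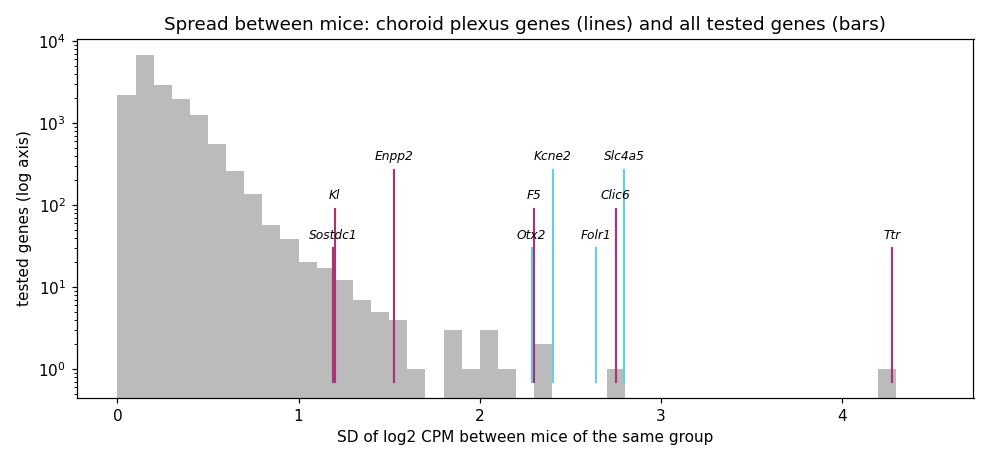
Histogram of the SD of log2 CPM between mice of the same group (horizontal axis) over 16209 tested genes (vertical axis, log scale). Lines mark the 10 choroid plexus genes, tested ones in purple and those under the filter in light blue, and *Ttr* stands alone at 4.27.

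The first comparison was between genotypes, the contrast in which *Ttr* had been noticed, and its values are a description. Group medians were lower in Nex than in lox/lox mice for all 10 genes, under control housing and after ELS alike, and in both cases the groups overlapped for all 10. The median of *Ttr* was 25.6 times higher in lox/lox than in Nex control mice and 4.08 times higher after ELS. For *Enpp2* the same ratios were 3.02 and 2.10, and for *Otx2* 4.68 and 4.19. Each of these ratios compares the middle mice of groups that overlap.

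The model took up most of that spread before comparing groups. It held the 4 group means and 5 surrogate variables, which svaseq estimates from the counts as variation the groups do not account for, and edgeR's quasi-likelihood F test was run on it with a false discovery rate (FDR) below 0.02 as the threshold. The first surrogate variable alone shared 74.9% of the variance of *Ttr* and between 49.1% and 72.2% of that of the other 9 genes. The groups accounted for 3.31% of it, but for 11.9%, 10.4%, 23.05% and 11.4% of surrogate variables 2 to 5. Surrogate variable 4 differed with rearing. Its group means were 0.079 (lox/lox control) and 0.115 (Nex control) against -0.091 (lox/lox ELS) and -0.104 (Nex ELS). It shared 2.24% of the variance of *Ttr* and 19.7% of that of *Kl*, the highest of the 10 genes. Its part in the ELS values was not tested. In this model the log2 fold change for genotype, Nex against lox/lox over both rearing conditions, was -3.04 ± 0.44 (standard error) for *Ttr*, -1.66 ± 0.32 for *Clic6* and -1.35 ± 0.33 for *F5*. It was -0.84 ± 0.14 for *Enpp2*, -0.78 ± 0.16 for *Sostdc1* and -0.64 ± 0.15 for *Kl*. The median of the 6 was -1.1, against -0.0017 over all tested genes. Of the 6 genes, *Ttr* and *Enpp2* passed the FDR, where 0.136% of all tested genes did. In control mice alone *Ttr*, *Enpp2* and *Clic6* passed (0.074% of all genes). *Clic6* entered the tests only through the lox/lox control mice, where its median was highest and its lowest count 11 reads, against 7, 1 and 7 reads in the other groups. The genotype contrast among ELS mice called 0 of the 6 (0.0123% of all genes). Other settings gave other counts for genotype over both rearing conditions: DESeq2's Wald test called 5 of the 6 (0.407% of all genes), an FDR of 0.05 called 4 (0.29%), surrogate variables estimated from other genes 4 (0.148%) and a fit with no read filter 6 of the 10 (0.137%), whereas edgeR's filterByExpr (0.103%) and robust fitting (0.0925%) left 0 called.

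Without surrogate variables the same 6 differences were smaller and less certain. They were -0.83 ± 1.12 for *Ttr*, -0.63 ± 0.82 for *Clic6* and -0.67 ± 0.76 for *F5*. Those of *Enpp2* (-0.54 ± 0.55), *Sostdc1* (-0.39 ± 0.44) and *Kl* (-0.44 ± 0.44) were about as large as their standard errors too, and 0 of the 6 passed, where 0.0185% of all genes did. With the surrogate variables, *Ttr* did not pass once Nex control mouse 12 (log2 fold change -2.33), Nex control mouse 52 (-2.004) or lox/lox ELS mouse 8 (-1.85) was left out, and these were the 3 mice with the least *Ttr*. Without Nex control mouse 42, the highest of its group, the value for *Ttr* was -2.90. With the surrogate variables estimated from other genes, the value for *Ttr* was -3.48 ± 0.47. That fit left out the 10 genes and the 26 other choroid plexus genes. It kept genes that follow *Ttr* closely, such as *Drc7* and *Col4a3* (rho 0.94 each), so it is not independent of their order of mice. The direction was negative for all 6 genes under each of these settings.

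The other choroid plexus genes had the same sign. Of the 17 tested, 17 had a negative log2 fold change for genotype (median -0.60), as did 8269 of all 16209 genes. One, *Cldn2*, passed the FDR (-1.11 ± 0.20), where 0.136% of all genes did. Of the 17, 15 had a rho above 0.5 with *Ttr*, the gene noticed for this contrast. Most of these genes thus share the order of mice that *Ttr* has, and their signs are not separate observations. Without surrogate variables all 17 were again negative (median -0.43) and 0 passed. Beside them, the hippocampal neuron list had 7 of 10 negative values, and 3 passed the FDR, namely *Neurod6*, whose locus carries the Cre, and the dentate gyrus genes *Prox1* and *Dsp*, and the last of these was named after its value was seen. Without surrogate variables 0 of these 10 passed. All 7 oligodendrocyte genes also had a rho above 0.5 with *Ttr*, but all 7 were positive for genotype. Their median was 0.12 with surrogate variables and 0.14 without, and 0 passed in either fit. Ependymal genes showed 0 of 6 past the FDR and a median of -0.098, which was 0.086 without surrogate variables. Their summed level had a group median of 25.8 CPM in lox/lox control, 16.4 in lox/lox ELS, 25.8 in Nex control and 20.5 in Nex ELS mice. That of the hippocampal neuron list was 723, 719, 510.3 and 546 CPM in the same order, and the part of these lists in the genotype values was not tested.

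**Figure D5:**
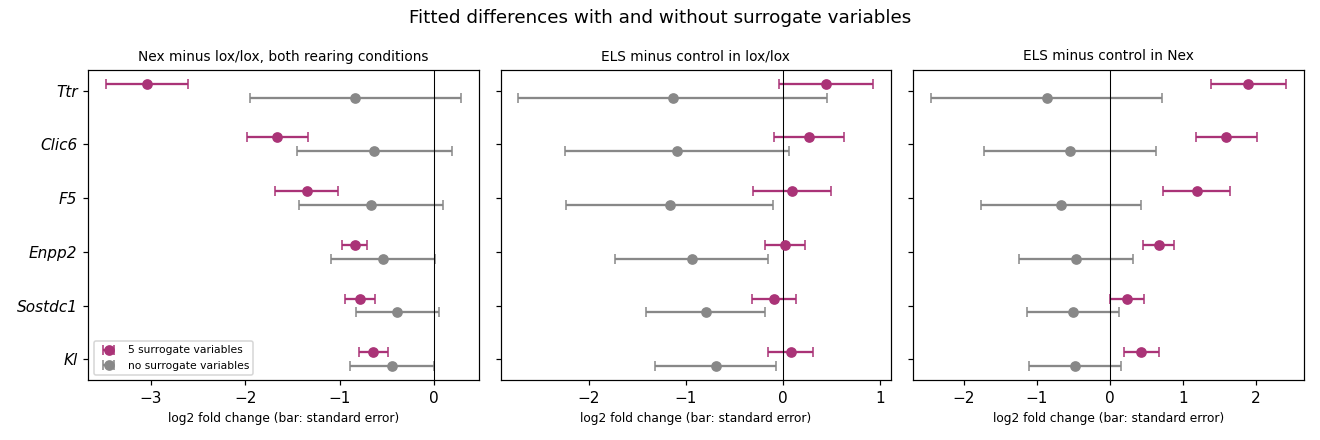
Log2 fold changes (horizontal axes, bars are standard errors) of the 6 tested genes for the comparison of genotypes and for that of rearing conditions in each genotype, with 5 surrogate variables (purple) and without any (grey). The genotype values keep their sign in both fits, whereas all 6 ELS values in Nex mice and 5 of 6 in lox/lox mice change theirs.

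The second comparison asked what ELS did to these genes in each genotype. The genes were chosen after *Ttr* had been seen to differ between genotypes in these same mice. Comparisons within a genotype reuse those mice and are not independent of that choice. In lox/lox mice the group median was higher after ELS for 1 of the 10 genes, *Otx2*, and in Nex mice for 9 of 10, all but *Sostdc1*. Groups overlapped for all 10 genes in both. The median of *Ttr* was 804 CPM in control and 469 CPM in ELS lox/lox mice, and 3 of the 6 ELS mice were above the control median. In Nex mice it was 31.4 CPM in control and 115 CPM in ELS mice, and 4 of the 6 ELS mice were above the control median. Neither difference exceeded the spread between mice: the difference of mean log2 CPM was -2.17 in lox/lox (exact two-sided permutation test over all splits of 6 against 6 mice, p = 0.381) and 1.39 in Nex mice (exact permutation p = 0.582). Over the 20 such tests, 10 genes in 2 genotypes, each adjusted p was 0.981.

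In the model, 0 of the 6 tested genes passed the FDR for ELS. For ELS in lox/lox mice, edgeR gave log2 fold changes from -0.09 ± 0.22 for *Sostdc1* to 0.45 ± 0.49 for *Ttr*, with a median of 0.09 against 0.0025 over all tested genes. None of the 6 passed at an unadjusted p of 0.05 either. For ELS in Nex mice the values were 1.89 ± 0.51 for *Ttr*, 1.59 ± 0.42 for *Clic6*, 1.19 ± 0.46 for *F5*, 0.67 ± 0.21 for *Enpp2*, 0.43 ± 0.24 for *Kl* and 0.23 ± 0.24 for *Sostdc1*, with a median of 0.93 against 0.0033 over all tested genes. Of these, 4 had an unadjusted p below 0.05, but after adjustment over all genes the p given by edgeR was 0.9995 for *Ttr* and passed the FDR for none of the 6. No gene in the table passed for ELS in either genotype (0% of 16209, with 807 and 447 genes at an unadjusted p below 0.05). DESeq2's Wald test called 1 gene for ELS in lox/lox mice (0.00617% of all genes) and 0 in Nex mice (0%), and 0 of the 6 in both.

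The sign of the ELS difference depended on how it was measured. Without surrogate variables, edgeR, which compares mean counts, gave -0.86 for *Ttr*, -0.55 for *Clic6* and -0.67 for *F5* for ELS in Nex mice, and all 6 genes were negative. The difference of mean log2 CPM in the same mice, which used no surrogate variables either, was positive for *Ttr* (1.39), *Clic6* (0.56) and *F5* (0.054) and negative for the other 3. In lox/lox mice the edgeR values without surrogate variables were -1.13 for *Ttr*, -1.09 for *Clic6* and -1.17 for *F5*, and again all 6 were negative. The 17 other choroid plexus genes did the same in Nex mice, with 17 positive values with surrogate variables (median 0.51) and 17 negative values without (median -0.43).

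The interaction (the difference that ELS made in lox/lox mice, less the one it made in Nex mice) was -1.45 ± 0.69 for *Ttr* and -1.32 ± 0.53 for *Clic6*, and negative for all 6 genes, with a median of -0.86 against 0.00027 over all tested genes. The p adjusted over all genes by edgeR was 0.999 for each, and 0% of all genes passed, with 641 at an unadjusted p below 0.05, 3 of the 6 among them. Without surrogate variables the value for *Ttr* was -0.27. The interaction, too, reuses the mice on which the genes were chosen.

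The genes through which these proteins act varied far less. The list of partners held the transporters and receptors of thyroid hormone and retinol carried by transthyretin, the receptors of lysophosphatidic acid, the FGF receptors that pair with Klotho, the LRP co-receptors that *Sostdc1* binds, and the channel and transporter that pair with *Kcne2*. Of these 23 genes 21 were tested, and their sum stayed between 1218 and 1486 CPM, with a rho of 0.21 with *Ttr*. Single genes differed, with 5 at a rho above 0.5, and the range ran from -0.71 (*Lpar4*) to 0.70 (*Fgfr2*), both named after their values were seen. The thyroid hormone receptor *Thra* ran from 552 to 749 CPM, the FGF receptors *Fgfr1* and *Fgfr3* from 91.7 to 168 CPM and from 85.9 to 151 CPM, and the Wnt co-receptor *Lrp6* from 45.8 to 78.2 CPM. Over the same 24 mice *Ttr* ran from 0.227 to 4235 CPM. By edgeR, 0 of the 21 passed the FDR for genotype (0.136% of all genes), for ELS in either genotype or for the interaction (0% each). At an unadjusted p below 0.05 there were 1, 0, 0 and 2 of the 21. Of all 16209 genes there were 1849, 807 (lox/lox), 447 (Nex) and 641.

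Some values are less certain because of overlapping genes, since the strand setting of the read counting is not given in the sources used here. In GENCODE vM21, *Ttr* (chr18:20665280-20674321), *Kl* (chr5:150952607-150993817), *Kcne2* (chr16:92292389-92298129), *Slc4a5* (chr6:83219828-83304945) and *Sostdc1* (chr12:36314139-36318452) overlap no other gene. *Folr1* (chr7:101858331-101870788) overlaps *Anapc15* on the opposite strand, which had 2438 reads over all mice. *Otx2* (chr14:48657677-48673819) overlaps the antisense *Otx2os1*, which had 157 reads, and *Enpp2* (chr15:54838901-54952892) overlaps *Gm26684*, which had 95. *Clic6* (chr16:92485736-92541243) and *F5* (chr1:164151838-164220277) overlap genes with at most 27 reads in all.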

How the data were processed

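Gene expression in the hippocampus was measured by bulk mRNA sequencing in 24 mice, with 6 in each group. The authors deposited unnormalized counts of reads for each gene, after removing reads with adaptors, poly-N or low quality, aligning pairs with Hisat2 2.0.5 and counting with featureCounts 1.5.0-p3. The genome build, annotation and strand setting are not given in the sources used here. From these counts, genes reaching 10 counts in all 6 mice of some group were kept and TMM-scaled. CPM are counts of the kept genes, TMM-scaled, per 1000000, and log2 CPM use a prior count of 2. The model of 4 group means and 5 surrogate variables (svaseq) was tested by quasi-likelihood F tests (edgeR 4.0.16 in R 4.3.3), with p adjusted by Benjamini-Hochberg over all 16209 kept genes and an FDR of 0.02. The other tools were limma 3.58.1, DESeq2 1.42.0, sva 3.50.0, scipy 1.17.1 and Python 3.11.15. The study itself used DESeq2. The steps were tested on simulated counts with fewer surrogate variables and no variation shared between genes. That test cannot show how the 5 surrogate variables act on the choroid plexus genes. Members and lists were chosen with earlier results of these data known. Genes named outside the 10 are at most 4 of each list by mean CPM, the 8 most like *Ttr*, and *Fkbp5*. Outside this rule are *Kcnq1*, as a partner of *Kcne2*, and the genes that overlap a member. *Mia*, *Dsp*, *Lpar4* and *Fgfr2* are also outside it and were named with their values known. One gene of the oligodendrocyte list is not reported here and was left out of its sum. Libraries of 18347283 to 26555623 reads counted to genes leave large counting error near 10 reads, and floors and zero counts cover counting error only. Coordinates are those of GENCODE vM21 on GRCm38 for the same Ensembl ID. Each group is made of separate mice, and no batch or litter is given in the labels used here. Alternatives were no surrogate variables, other filters and size factors, DESeq2, limma-voom, robust fitting, an FDR of 0.05, exact permutation, a prior count of 0.5 and each mouse left out. A further 3 were added after seeing the data: surrogate variables from other genes, gaps between mice on log2 CPM, and no surrogate variables with no filter.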

Additional observations from a re-analysis of the deposited data

Results flagged for a closer look

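One mouse of 24 accounts for every single CPM value that lay far from the rest of its group. In Nex control mouse 42 the gap between its level and that of the next mouse exceeded Dixon's 95% critical value for 6 samples in 9 of the 10 choroid plexus genes. *Ttr* stood at 3132 CPM there and at 821 CPM in the next mouse of the group. *Enpp2* stood at 1412 CPM against 514 CPM. *Clic6* (62.4 against 18.8 CPM) and *F5* (48.1 against 14.9 CPM) were raised alike. So were *Kcne2* (23.2 against 5.68 CPM), *Slc4a5* (23.2 against 7.46 CPM) and *Sostdc1* (23.3 against 9.48 CPM), as well as *Otx2* (21.9 against 6.22 CPM) and *Folr1* (21.2 against 4.89 CPM). *Kl* was not past that value. In all, 9 of 40 combinations of gene and group were past it, all in the same mouse. The usual rate of 1 in 20 groups by chance holds for normal samples, whereas CPM of these genes are strongly skewed, and the 9 values come from 1 library and from genes that vary together. On the log2 scale, tried after seeing the data, 0 of the 40 combinations were past the critical value, and the same ratio for this mouse ran from 0.146 to 0.342 over the 10 genes. The same library had the highest summed level of oligodendrocyte genes (4112 CPM) and the lowest of endothelial genes (116 CPM) and of hippocampal neuron genes (351 CPM), with ependymal genes at 65.4 CPM, next to the highest mouse, and the part of these in its choroid plexus genes was not tested.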

How the results depend on the processing

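The number of the 10 genes past the FDR for genotype was 2 as reported (0.136% of all genes) and 4 at an FDR of 0.05 (0.29%). It was 0 without surrogate variables (0.0185%), 0 with filterByExpr (0.103%) and 0 with robust fitting (0.0925%). With no filter it was 6, among them *Otx2* and *Slc4a5* (0.137%), and with DESeq2's Wald test 5 (0.407%). With neither surrogate variables nor filter it was 0 (0.00937%), and with surrogate variables from other genes 4 (0.148%). In control mice alone the number was 3 as reported (0.074% of all genes), 0 without surrogate variables (0.0123%), 0 with filterByExpr (0.04%), 5 with no filter (0.0843%), 5 with DESeq2's Wald test (0.327%), 0 with robust fitting (0.0432%) and 0 with neither surrogate variables nor filter (0.00625%). Leaving out each mouse in turn gave 0 to 4 for genotype, with 0 without Nex control mouse 12 or 52 or lox/lox ELS mouse 8, 1 without lox/lox control mouse 44 or lox/lox ELS mouse 68, and 4 without Nex ELS mouse 66 or lox/lox ELS mouse 78. In control mice alone it gave 0 to 3, with 0 without Nex control mouse 12, 32, 52 or 54 or lox/lox ELS mouse 8, and 1 without Nex control mouse 42 or 64, lox/lox control mouse 44 or 50, Nex ELS mouse 60 or lox/lox ELS mouse 68 or 72. The share of all genes passing was not computed with a mouse left out. A change in these genes can therefore not be told from a change in all calls, and the cause was not tested. The genotype values themselves kept their sign under each alternative fit, and that of *Ttr* lay between -3.56 and -1.85 over the left-out mice. The permutation test on mean log2 CPM was run for ELS only. On that scale *Ttr* had means of 8.48 in lox/lox and 4.96 in Nex control mice, but 6.31 and 6.35 after ELS. The means of the other genes were lower in Nex mice in both conditions.

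ELS values changed sign. For ELS in lox/lox mice, log2 fold changes without surrogate variables were -1.13 for *Ttr*, -0.94 for *Enpp2*, -0.69 for *Kl*, -1.09 for *Clic6* and -1.17 for *F5*, and differences of mean log2 CPM in the exact permutation test were -2.17, -0.61, -0.40, -1.19 and -1.17 for the same genes. With filterByExpr *Enpp2* was at -0.056 and *F5* at -0.013, and with DESeq2's Wald test *Clic6* was at -0.11 and *F5* at -0.20. Leaving out each mouse gave -0.47 to 0.64 for *Ttr*, -0.11 to 0.17 for *Enpp2*, -0.055 to 0.17 for *Kl*, -0.23 to 0.37 for *Clic6*, -0.27 to 0.045 for *Sostdc1* and -0.22 to 0.25 for *F5*, and *Ttr* was negative only without lox/lox ELS mouse 4. For ELS in Nex mice, values without surrogate variables were -0.86 for *Ttr*, -0.46 for *Enpp2*, -0.47 for *Kl*, -0.55 for *Clic6*, -0.50 for *Sostdc1* and -0.67 for *F5*, and the exact permutation test gave -0.027 for *Enpp2*, -0.12 for *Kl* and -0.11 for *Sostdc1*. None of these differences passed the FDR under any alternative run. The SDs between mice moved little with a prior count of 0.5. No paired analysis was possible because the groups compared share no mouse numbers and the labels used here give no litter. ELS was given to whole litters and the genotypes were littermates, so mice of one litter are not independent. The tests took each mouse as a separate unit, and an effect of litter was not tested. Depth limits *Folr1*, *Kcne2*, *Otx2* and *Slc4a5*, and *Ttr* and *Clic6* in the lowest mice.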
